A study of Danio rerio with 8 samples.

Results

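The genes described here encode the acid machinery of the lysosome: 17 cathepsins, 22 subunits of the vacuolar proton pump, 8 lysosomal membrane genes and 10 genes matched by the names of lysosomal glycosidases. They are the 57 of 35197 rows whose symbol begins with one of a fixed set of names. The membrane genes are a group made by name, and include npc2, which encodes a soluble protein. Rows were taken by symbol, but the set of names was chosen with earlier results of these data known. The RNA came from whole zebrafish larvae sampled singly 6 days after fertilization (dpf). There were 8 libraries, from 4 larvae that were wild-type siblings and 4 zygotic homozygotes for the osgep G177A allele (osgep G177A/G177A). osgep encodes the catalytic subunit of KEOPS, which makes the threonylcarbamoyl modification of transfer RNA. Each library is a whole larva, labelled whole embryo, so every level is a mean over all tissues, and fewer cells of a type cannot be told apart from less RNA per cell. The labels say that embryos came from single and group crosses and give no clutch, tank or day for a larva, so a p-value here reflects only how these single larvae vary.

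The lysosome degrades proteins, glycans and lipids in an acid lumen. The vacuolar ATPase (proton pump) acidifies it: the peripheral V1 sector burns ATP and turns a rotor, and the membrane-embedded V0 sector passes the protons. Cathepsins are the proteases that work in that lumen, mostly cysteine proteases, with cathepsin D an aspartic and cathepsin A a serine enzyme. The same pump also acidifies synaptic vesicles and endosomes and drives acid secretion by ionocytes of the fish skin, while macrophages and the lysosome-rich enterocytes of the larval gut are known for abundant cathepsins.

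Library totals ranged from 14398812 to 19052599 estimated counts, and 21447 rows were tested. osgep itself fell, from 8.66 ± 2.67 CPM (SD, n = 4) in wild-type larvae to 2.73 ± 0.852 CPM (SD, n = 4) in homozygotes, where CPM are counts scaled to a common library size. Defining genes of muscle (mylpfa), neurons (elavl3), liver (fabp10a), cone photoreceptors (gnat2), epidermis (krt4), exocrine pancreas (prss1), gut (fabp2), blood (hbae1.1) and cartilage (col2a1a) were all measured in each larva. Wild-type 1 and homozygote 2 stood apart: without the one or the other the share of all rows called was 9.76% or 5.31% in place of 1.05%, and results are also given without them.

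Of the 57 member rows, 51 were abundant enough to test. Exactly 1 member fell in homozygotes, the membrane gene laptm5, 0 rose and 50 did not pass, which is 1.96% of the members beside 1.05% of all rows called in either direction and 0.769% called lower. That share is near the background and is no result about the members as a set. Fold changes nevertheless lay mostly on the lower side: 38 of 51 members were below 0 and 13 above, where 48.2% of all rows lay below 0. The median log2 fold change (homozygote minus wild-type) was -0.39 over the members and 0.02 over all rows. The tissue genes named above lay on the same side. With osgep, cpa5 and hbbe1.1 added, all 12 tested were below 0, at a median of -0.60. An unadjusted edgeR p under 0.05 was met by 6, beside 12.4% of all rows with such a p and a lower level. Of the 12 only osgep passed. The others included fabp10a at -1.06, hbae1.1 at -1.41, prss1 at -0.92, fabp2 at -0.53 and mylpfa, not one of the 6, at -0.67. The lists of cell type markers described below did not all lie lower. Of 16 neuron and synaptic vesicle markers, 5 were below 0 and 11 above, at a median of 0.11. Of 10 ionocyte markers, 3 were below 0 and 7 above, also at a median of 0.11. The part of any tissue in the members' lower side was not tested. An unadjusted edgeR p under 0.05 with a lower level was met by 23 members, and by 12.4% of all rows. With a higher level it was met by 1 member, ctsf, and by 9.84% of all rows. The groups did not overlap in 10 members (10.4% of all rows), 9 with homozygotes lower (4.95%) and 1 higher, atp6v0a2b (5.50%).

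**Figure D1:**
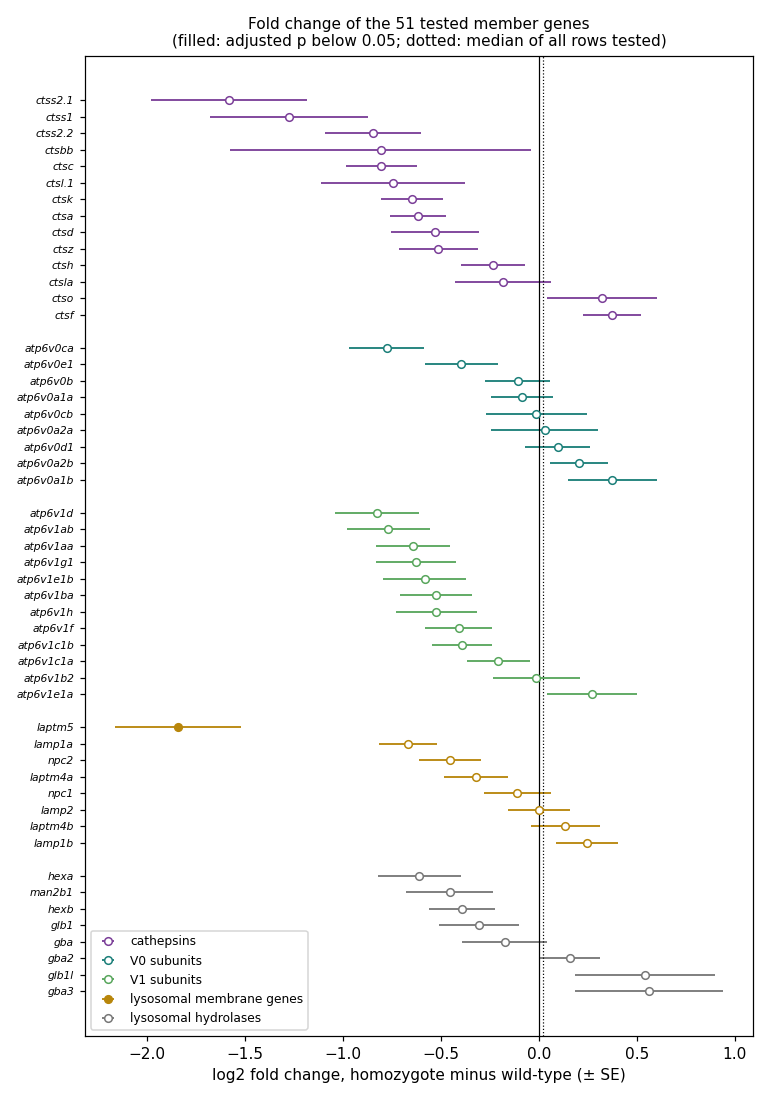
Log2 fold change (homozygote minus wild-type, horizontal axis, with SE) of each of the 51 tested members, grouped by family; the filled point is past an adjusted p of 0.05 and the dotted line is the median of all rows. Of the families, the cathepsins and the V1 subunits lie furthest to the lower side, and laptm5 is the filled point at -1.84.

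Among the membrane genes, laptm5 had the largest difference of all members. It encodes a lysosomal membrane protein that in mammals is made mainly by blood cells. Wild-type larvae 1 to 4 held 16.3, 34.3, 24.5 and 11.2 CPM of it, and homozygotes 1 to 4 held 4.81, 8.05, 6.39 and 4.77 CPM. The groups did not overlap, and wild-type 4 came closest to the homozygotes. The gene was 3.58-fold lower (log2 fold change -1.84, SE 0.32, edgeR quasi-likelihood F test, Benjamini-Hochberg adjusted p = 0.0227). It no longer passed when wild-type 3 (edgeR adjusted p = 0.0845), homozygote 1 (0.0875), homozygote 3 (0.0598) or homozygote 4 (0.0745) was removed, always with the same direction. Across the 17 alternatives its adjusted p lay between 4.17e-06 and 0.0875.

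laptm5 stood beside a lower level of leukocyte markers. In the list of macrophage and microglia markers 25 were tested: 11 fell, 0 rose and 14 did not pass, beside 0.769% of all rows called lower. The summed level of the list ran from 1920 to 3509 CPM in wild-type and from 1380 to 1964 CPM in homozygotes, so the groups overlapped. Without apoeb, a gene that other tissues also express, the sums ran from 609 to 1359 CPM and from 320 to 459 CPM. Of 19 neutrophil markers, 6 fell, 0 rose and 13 did not pass, again beside 0.769% of all rows called lower. Their sums also overlapped, at 1943 to 4733 CPM in wild-type and 1509 to 2782 CPM in homozygotes. Without cpa5, which the exocrine pancreas also makes, they ran from 735 to 1267 CPM and from 399 to 578 CPM. Leaving out apoeb and cpa5 was not planned, and only then were the sums separate. In both lists without those genes wild-type 4 had the lowest sum of its group, as it had the lowest laptm5. The part of these cells in the laptm5 result was not tested.

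The other membrane genes did not pass. lamp1a, for a major glycoprotein of the lysosomal membrane, was at 90.0, 94.9, 82.2 and 70.6 CPM in wild-type and 45.9, 56.8, 55.1 and 54.7 CPM in homozygotes. Every homozygote lay below every wild-type larva, and the log2 fold change of -0.67 (SE 0.15) just missed the threshold (adjusted p = 0.0526 by edgeR). Its paralog lamp1b lay on the other side, with a log2 fold change of 0.24 (SE 0.16, adjusted p = 0.379 by edgeR) and overlapping groups. Of 9 paralog pairs among the members, a comparison made after the values were seen and not tested, this was the 1 pair whose ratio did not overlap between the groups: the log2 ratio of lamp1b to lamp1a was -2.18 ± 0.25 (SD, n = 4) in wild-type and -1.28 ± 0.30 (SD, n = 4) in homozygotes. A ratio within a larva does not depend on how libraries are scaled. Of all single rows 10.4% did not overlap between the groups. The share among ratios of other gene pairs was not counted, so 1 of 9 is no result about the pairs.

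npc2 encodes the soluble cholesterol carrier that hands cholesterol to npc1 in the lysosomal membrane. It stood at 101, 139, 119 and 124 CPM in wild-type and 78.7, 104, 83.5 and 86.8 CPM in homozygotes, so that wild-type 1 and homozygote 2 overlapped (log2 fold change -0.45, SE 0.16, adjusted p = 0.128 by edgeR). npc1 itself was at -0.11 (SE 0.17) and lamp2, a receptor of chaperone-mediated autophagy, at 0.00 (SE 0.16). laptm4a and laptm4b, the widely expressed relatives of laptm5, were at -0.32 and 0.14, so the membrane family held no common direction.

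**Figure D2:**
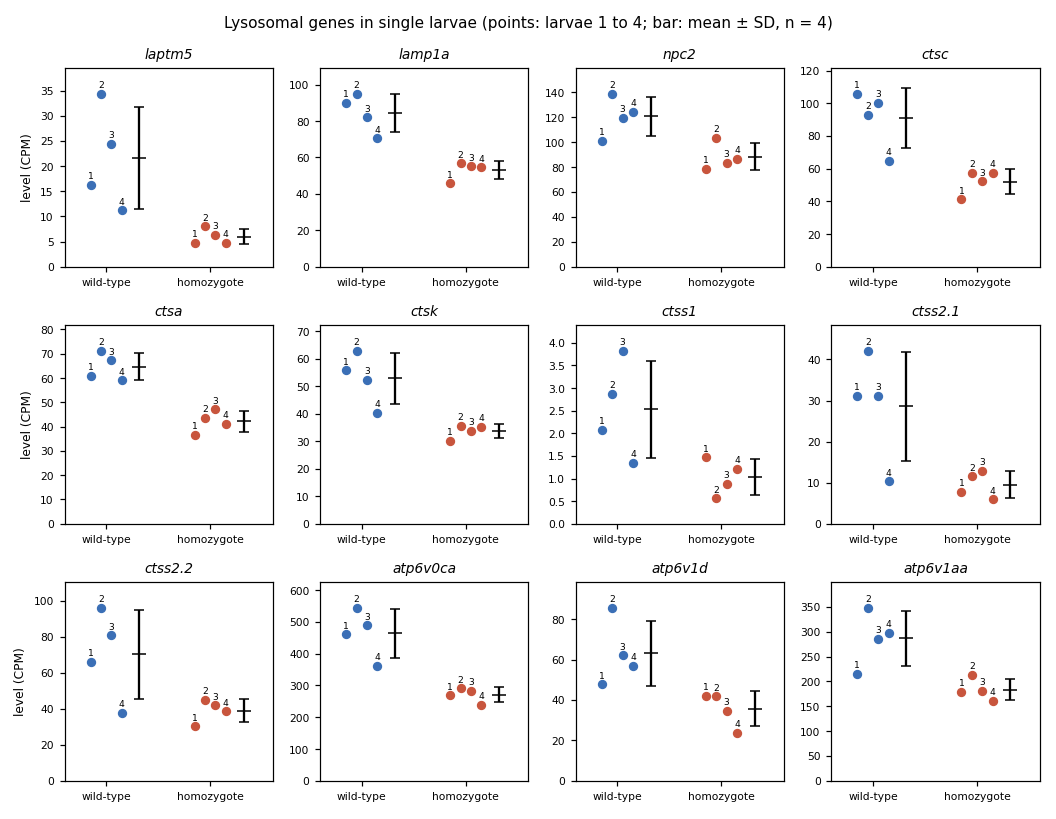
Level in CPM (vertical axis) of 12 members in each larva, numbered 1 to 4 within its group, with the mean and SD of 4 larvae as a bar. In laptm5, lamp1a, ctsc, ctsa, ctsk, atp6v0ca, atp6v1d and atp6v1aa the groups do not overlap; in npc2 and the ctss genes a larva of one group lies within the range of the other.

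None of the 14 tested cathepsins was called, although 12 had a log2 fold change below 0 and 8 of them an unadjusted edgeR p under 0.05, beside 48.2% and 12.4% of all rows. DESeq2 called 6 of them lower and limma voom 0, where those tools called 8.0% and 0.709% of all rows in either direction. Their median log2 fold change was -0.63. The smallest p belonged to ctsc, for dipeptidyl peptidase I, which in mammals activates the serine proteases of leukocyte granules. Wild-type larvae held 106, 93.1, 100.3 and 64.8 CPM and homozygotes 41.3, 57.3, 52.3 and 57.4 CPM. The groups were separate, with wild-type 4 the nearest to the homozygotes (log2 fold change -0.80, SE 0.18, adjusted p = 0.0529 by edgeR).

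ctsa encodes the serine carboxypeptidase that also shields beta-galactosidase and neuraminidase in the lysosome. Wild-type larvae held 60.9, 71.1, 67.4 and 59.1 CPM and homozygotes 36.6, 43.6, 47.2 and 41.0 CPM of it. No larva crossed over, and the spread within each group was small (log2 fold change -0.62, SE 0.14, adjusted p = 0.0553 by edgeR). ctsk encodes cathepsin K, the collagen-degrading protease of mammalian osteoclasts. It was at 55.8, 62.8, 52.4 and 40.4 CPM in wild-type and 30.1, 35.7, 33.9 and 35.3 CPM in homozygotes, again without overlap (log2 fold change -0.65, SE 0.16, adjusted p = 0.0624 by edgeR). Other osteoclast markers gave no common direction: of 6 tested, acp5a fell (2.61-fold), 0 rose and 5 did not pass (0.769% of all rows were called lower). Their sums overlapped (37.6 to 43.9 CPM against 32 to 54.8 CPM), and dcstamp, a fusion protein gene of osteoclasts, had at most 10 counts in any larva.

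The cathepsin S genes had the largest differences of the cathepsins but also a wide spread among wild-type larvae. Cathepsin S is the protease that trims the invariant chain in mammalian antigen-presenting cells. ctss2.1 was at 31.1, 42.1, 31.1 and 10.3 CPM in wild-type and 7.81, 11.6, 12.9 and 5.98 CPM in homozygotes (log2 fold change -1.58, SE 0.40, adjusted p = 0.0789 by edgeR). ctss2.2 was at 66.3, 96.0, 80.9 and 37.8 CPM against 30.3, 45.2, 42.0 and 38.6 CPM (-0.85, SE 0.24, 0.0875 by edgeR). In both, wild-type 4 lay among the homozygotes while the other 3 wild-type larvae lay above them all, and wild-type 4 was also the wild-type larva with the lowest macrophage marker sum. Without wild-type 4 both genes were called (adjusted p = 0.00397 and 0.0175 by edgeR). That fit leaves out the larva that made the groups overlap, so these calls are no support for a difference. Across the 17 alternatives ctss2.1 was called in 3 (adjusted p up to 0.207) and ctss2.2 in 2 (up to 0.250). ctss1, at 2.53 ± 1.06 CPM (SD, n = 4) and 1.04 ± 0.394 CPM (SD, n = 4), had a log2 fold change of -1.28 (SE 0.40, adjusted p = 0.107 by edgeR).

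ctsk, ctss2.1 and ctss2.2 are direct neighbours in that order in the RefSeq gene order of chromosome 16, and are the only members that adjoin another member. RSEM divides reads shared by near-identical paralogs, which can leave fractional counts. The estimated counts of ctss2.1 and ctss2.2 were whole numbers in every larva and so give no sign of such a division. The log2 ratio of ctss2.2 to ctss2.1 was 1.38 ± 0.34 (SD, n = 4) in wild-type and 2.07 ± 0.42 (SD, n = 4) in homozygotes, and the groups overlapped.

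The other tested cathepsins, apart from cathepsins B and L, did not pass either. ctsd, for the aspartic protease cathepsin D, stood at 297 ± 68.6 CPM in wild-type larvae and at 205 ± 52.9 CPM in homozygotes (each SD, n = 4) (log2 fold change -0.53, SE 0.22). ctsz, for a carboxypeptidase, was at -0.51 (SE 0.20) and ctsh, for an aminopeptidase, at -0.23 (SE 0.16). ctsf and ctso, both for cysteine cathepsins, lay on the other side at 0.37 (SE 0.15) and 0.32 (SE 0.28). The groups of ctsf overlapped only through wild-type 1 (95.7 CPM) and homozygote 2 (94.3 CPM), and with all larvae it did not pass (adjusted p = 0.164 by edgeR). It was the 1 member called higher when those larvae were left out (adjusted p = 0.0177 by edgeR), and 1 of the 17 alternatives called it. Leaving out those larvae, chosen after the data were seen, removed the overlap itself, so that call is no support for a difference. The family thus had members on both sides of 0.

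Cathepsins B and L varied more between larvae than between genotypes. ctsbb, one of the pair of cathepsin B genes, was at 16.5, 116, 53.1 and 108 CPM in wild-type and 37.0, 17.2, 21.2 and 92.7 CPM in homozygotes, low in wild-type 1 and homozygote 2 and high in wild-type 2, wild-type 4 and homozygote 4. ctsl.1, a cathepsin L gene, ran from 184 CPM in wild-type 1 to 717 CPM in wild-type 2 and from 189 CPM in homozygote 2 to 416 CPM in homozygote 4. Neither passed (log2 fold changes -0.81, SE 0.77, and -0.74, SE 0.37). ctsla, another cathepsin L gene, was at 1660 ± 383 CPM (SD, n = 4) and 1460 ± 222 CPM (SD, n = 4), a log2 fold change of -0.18 (SE 0.24).

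The markers of lysosome-rich enterocytes, the gut cells that take up and digest luminal protein, shared some of these low and high larvae. cubn, for the endocytic receptor cubilin, was at 22.9, 82.5, 51.8 and 141 CPM in wild-type and 45.4, 22.5, 22.6 and 59.0 CPM in homozygotes. As with ctsbb, wild-type 1 was the lowest wild-type larva, homozygote 2 the lowest and homozygote 4 the highest homozygote, but the highest wild-type larva was wild-type 4 and not wild-type 2. Over the 6 markers, wild-type 1 was lowest and homozygote 4 highest of its group in all 6, homozygote 2 was lowest in 5 (homozygote 3 for lrp2b), and wild-type 4 was highest in 5 (wild-type 2 for amn). Of the 6 markers 0 rose, 0 fell and 6 did not pass. All 6 lay below 0, at a median log2 fold change of -0.67, with fabp6 lowest at -1.28 (SE 0.37). An unadjusted edgeR p under 0.05 was met by 2, dab2 and fabp6, both lower (12.4% of all rows). fabp6 and slc10a2 are bile acid genes and are not specific to lysosome-rich enterocytes. cubn was at -0.99 (SE 0.58), amn at -0.61 (SE 0.51), dab2 at -0.74 (SE 0.29) and lrp2b at -0.51 (SE 0.87). The sums of all 6 overlapped, at 265 to 903 CPM in wild-type and 165 to 453 CPM in homozygotes. Of these sums fabp6 alone held 196 to 573 CPM and 95.1 to 278 CPM. The part of lysosome-rich enterocytes in the levels of ctsbb and ctsl.1 was not tested.

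ctsba, the other cathepsin B gene, was carried by 1 larva. Wild-type 4 had 2117 estimated counts (124 CPM), while the other wild-type larvae had 1, 2 and 1 counts and the homozygotes 3, 5, 2 and 0. Because of this it did not pass the filter and was not tested. A pattern this sharp, at least 500 counts in 1 larva and at most 10 in each of the others, was found in 2 of 35197 rows, the other being tceb2 in homozygote 3. In wild-type 4 ctsbb was not low in return, so the summed level of both cathepsin B genes was 232 CPM there and between 16.5 and 117 CPM in the other 7 larvae. ctslb, known from the zebrafish hatching gland, and ctsll had at most 13 counts in any larva and were not tested either.

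**Figure D3:**
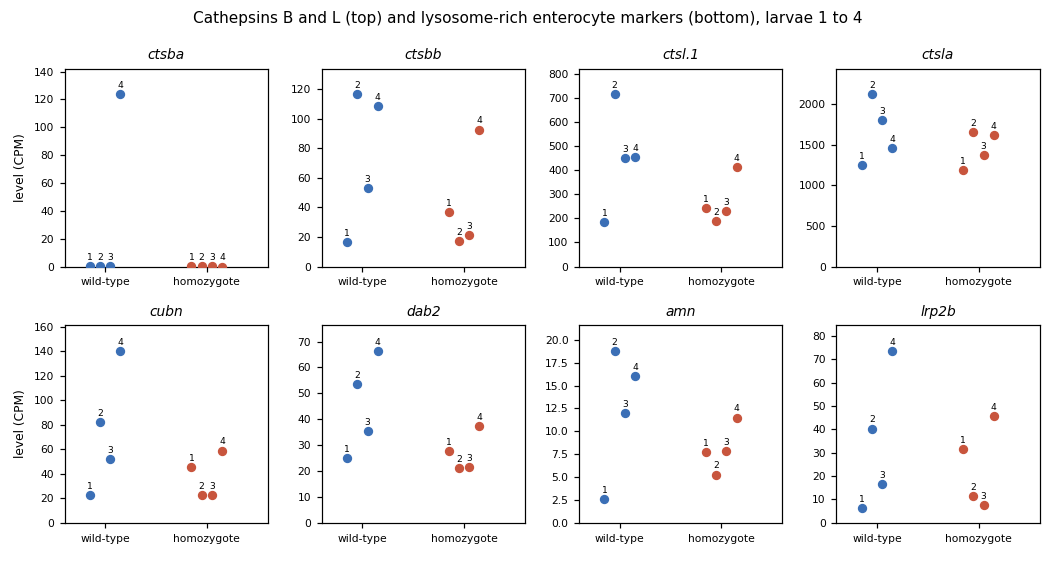
Level in CPM (vertical axis) in each larva, numbered 1 to 4 within its group, of 4 cathepsin genes (top) and 4 markers of lysosome-rich enterocytes (bottom). ctsba stands at 124 CPM in wild-type 4 alone; ctsbb and ctsl.1 have wild-type 1 and homozygote 2 lowest in their groups.

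Of the proton pump, 21 of 22 subunit genes were tested, and by edgeR 0 rose, 0 fell and 21 did not pass; 10 had an unadjusted edgeR p under 0.05, all lower (12.4% of all rows), while DESeq2 called 6 lower and limma voom 0 (8.0% and 0.709% of all rows in either direction). Their median log2 fold change was -0.39. The V0 and V1 sectors differed in where their members lay. In V1, 11 of 12 subunits were below 0 (median -0.52) and 9 had an unadjusted edgeR p under 0.05, while in V0 5 of 9 were below 0 (median -0.01) and 1 did. Of all rows 48.2% lay below 0 and 12.4% had such a p on the lower side. By summed level both sectors were lower in homozygotes without overlap, V0 only just. V0 ran from 903.9 to 1074 CPM in wild-type and from 664 to 903.6 CPM in homozygotes. V1 ran from 1163 to 1527 CPM and from 689 to 1119 CPM. The V0 sum rests most on atp6v0ca, with means of 464 and 271 CPM. The sums were not tested.

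In V1, the ATP-hydrolysing head is built of A and B subunits. atp6v1aa, for an A subunit, was at 215, 348, 286 and 298 CPM in wild-type and 179, 213, 181 and 161 CPM in homozygotes, separated only by the narrow step between wild-type 1 and homozygote 2 (log2 fold change -0.64, SE 0.19, adjusted p = 0.0897 by edgeR). Its paralog atp6v1ab was at 95.1, 113, 91.0 and 63.3 CPM and 54.3, 69.6, 50.9 and 37.8 CPM, with wild-type 4 below homozygote 2 (-0.77, SE 0.21, 0.0779 by edgeR). The B subunit genes did not go together: atp6v1ba was at -0.53 (SE 0.18) and atp6v1b2 at -0.01 (SE 0.22).

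The central stalk turns inside that head. atp6v1d, its D subunit, had the smallest p of the V1 genes, with 47.8, 85.5, 62.1 and 56.9 CPM in wild-type and 42.2, 41.8, 34.7 and 23.7 CPM in homozygotes. The groups were separate, with wild-type 1 nearest to the homozygotes (log2 fold change -0.82, SE 0.21, adjusted p = 0.0709 by edgeR). atp6v1f, the other stalk subunit, was at -0.41 (SE 0.17). Of the outer stalks, atp6v1g1 was at -0.63 (SE 0.20), atp6v1e1b at -0.58 (SE 0.21) and its paralog atp6v1e1a at 0.27 (SE 0.23). atp6v1h and atp6v1c1b, for the subunits that regulate the joining of the sectors, were at -0.52 (SE 0.21) and -0.39 (SE 0.15), and atp6v1c1a was at -0.21 (SE 0.16). atp6v1c2 had at most 24 counts in any larva and was not tested.

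atp6v1e1b lies near osgep on chromosome 4, 7 places away in the RefSeq order of protein-coding genes. Homozygotes inherit the chromosome around the allele together with it, so for this gene linked variants and the osgep genotype cannot be told apart. The other member on that chromosome, atp6v1f, is 348 places away.

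In V0, the gene with the smallest p was atp6v0ca, for the proteolipid that forms the proton-carrying ring. It stood at 461, 544, 489 and 361 CPM in wild-type and 269, 291, 284 and 239 CPM in homozygotes. All homozygotes lay well below the lowest wild-type larva (log2 fold change -0.78, SE 0.19, adjusted p = 0.0612 by edgeR). Its paralog atp6v0cb was at -0.01 (SE 0.26), with a wide spread in homozygotes from 65 to 167 CPM.

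atp6v0e1 encodes a small membrane subunit of V0. It was at 34.5, 54.3, 49.5 and 45.2 CPM in wild-type and 25.3, 40.1, 38.2 and 35.9 CPM in homozygotes, with wild-type 1 among the homozygotes (log2 fold change -0.40, SE 0.18, adjusted p = 0.227 by edgeR). atp6v0a1b encodes an isoform of the large a subunit, which in mammals is typical of neurons. It was at 45.1, 46.8, 45.7 and 43.2 CPM in wild-type and 93.0, 45.8, 56.3 and 39.4 CPM in homozygotes, highest in homozygote 1, with homozygote 3 also above every wild-type larva and homozygotes 2 and 4 not (log2 fold change 0.37, SE 0.23, adjusted p = 0.344 by edgeR). Homozygote 1 also had the highest sum of 16 neuron and synaptic vesicle markers, 1503 CPM beside 804 to 1128.5 CPM in the other larvae. Of these markers 0 rose, 0 fell and 16 did not pass (1 at an unadjusted edgeR p under 0.05, beside 22.3% of all rows). The paralog atp6v0a1a was at -0.09 (SE 0.16) and was lowest in homozygote 1 (73.3 CPM, beside 83.2 to 96.9 CPM in the other homozygotes). The part of neurons in the level of atp6v0a1b was not tested. The remaining V0 genes lay between -0.11 (atp6v0b) and 0.21 (atp6v0a2b).

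In some ionocytes the pump faces the water. The markers of ionocytes of any type numbered 10 tested, of which 0 rose, 0 fell and 10 did not pass. The 1 with an unadjusted edgeR p under 0.05 was slc12a10.2, for a chloride cotransporter, higher without overlap (log2 fold change 0.85, SE 0.20, edgeR adjusted p = 0.0577). It is not a marker of the type that bears the pump. Of all rows 9.84% had such a p on the higher side. The sums of the list overlapped, at 203 to 287 CPM in wild-type and 205 to 296 CPM in homozygotes. The part of ionocytes in the levels of the pump genes was not tested.

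The contrast of cathepsins with proton pump subunits was taken within each larva, where the scaling of libraries drops out. The mean log2 CPM of the 14 cathepsins minus that of the 21 pump subunits was -0.09, 0.29, 0.12 and -0.13 in wild-type larvae 1 to 4 and -0.43, -0.52, -0.20 and 0.34 in homozygotes 1 to 4. The first 3 homozygotes lay below all wild-type larvae and homozygote 4 lay above them, so the groups overlapped. The group means were 0.05 ± 0.19 (SD, n = 4) and -0.20 ± 0.39 (SD, n = 4), a difference of -0.25 that is within the spread of the homozygotes. Without the 3 ctss genes the difference was -0.09, a setting chosen after the values were seen. A score over the members is given without a test.

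The V1 and V0 sectors of the pump were set against each other in the same way, a comparison also chosen after the values were seen and not tested. Each subunit weighs the same in these means, unlike in the summed levels, which were lower in homozygotes for both sectors. The V1 mean minus the V0 mean was 0.31, 0.48, 0.29 and 0.13 in wild-type larvae 1 to 4 and -0.14, 0.12, -0.10 and -0.09 in homozygotes. The groups were separate only by the small gap between wild-type 4 (0.126) and homozygote 2 (0.117). The difference of the means was -0.35, and -0.27 when tcirg1b, a V0 subunit gene outside the naming rule, was counted with V0. It was -0.21 in a refit without wild-type 2. That refit tested 52 members in place of 51, so its gene set was not the same and the change cannot be put down to that larva alone. tcirg1a, the paralog of tcirg1b, was also outside the naming rule. It was at a log2 fold change of -0.31 (SE 0.18) and was not counted with V0.

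**Figure D4:**
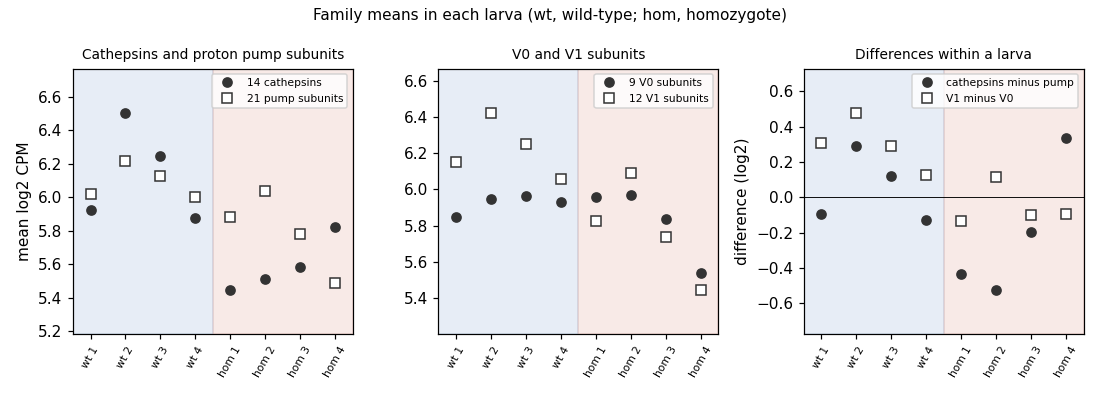
Mean log2 CPM in each larva of the 14 cathepsins and the 21 pump subunits (left) and of the V0 and V1 subunits (middle), and the differences within a larva (right, log2 units). Cathepsins minus pump overlaps between the groups because of homozygote 4 at 0.34; V1 minus V0 runs from 0.13 to 0.48 in wild-type and from -0.14 to 0.12 in homozygotes.

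Lysosomal hydrolases other than proteases had 8 of 10 rows tested, of which 0 rose, 0 fell and 8 did not pass. An unadjusted edgeR p under 0.05 was met by 2, both lower (12.4% of all rows). DESeq2 called 0, beside 8.0% of all rows in either direction. hexa and hexb encode the subunits of beta-hexosaminidase. hexa was at 16.3, 20.5, 17.6 and 12.7 CPM in wild-type and 12.4, 10.9, 7.41 and 13.1 CPM in homozygotes, with homozygote 4 above wild-type 4 (log2 fold change -0.61, SE 0.21, adjusted p = 0.128 by edgeR). hexb was at 77.2, 102, 97.4 and 114 CPM and 61.5, 86.6, 70.5 and 79.5 CPM (-0.39, SE 0.17, 0.194 by edgeR), where wild-type 1 lay among the homozygotes.

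man2b1, for lysosomal alpha-mannosidase, was at 57.8, 91.6, 68.9 and 99.3 CPM in wild-type and 50.7, 46.0, 50.7 and 84.2 CPM in homozygotes. Homozygote 4 stood apart from the other 3 and overlapped the wild-type range (log2 fold change -0.45, SE 0.22, adjusted p = 0.245 by edgeR). glb1, for beta-galactosidase, and gba, for glucocerebrosidase, were at -0.30 (SE 0.20) and -0.17 (SE 0.22). The 3 genes above 0 were gba2 (0.16), gba3 (0.56) and glb1l (0.54); gba2 and gba3 encode glucosidases that act outside the lysosome in mammals. gaa, for acid alpha-glucosidase, had at most 12 counts in any larva, and the antisense row gaa3-as had 0 counts in every larva, so neither was tested.

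Other genes of the pathway were taken from lists made with earlier results known. Of 44 other lysosomal hydrolases tested, 2 fell, 0 rose and 42 did not pass (median log2 fold change -0.18), beside 0.769% of all rows called lower. scpep1, for a serine carboxypeptidase related to cathepsin A, was at 75.9, 102, 86.5 and 82.9 CPM in wild-type and 43.3, 52.4, 44.7 and 51.8 CPM in homozygotes, well separated (1.80-fold lower, adjusted p = 0.0185 by edgeR). acp5a, for tartrate-resistant acid phosphatase, was 2.61-fold lower (adjusted p = 0.0382 by edgeR). dnase2, for the nuclease that digests DNA of engulfed cells, was at -1.30 (SE 0.30, adjusted p = 0.0579 by edgeR), and sgsh, for a heparan sulfamidase, at -0.83 (SE 0.22).

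Of 11 pump genes outside the naming rule, 0 rose, 0 fell and 11 did not pass. Of the 6 at an unadjusted edgeR p under 0.05, 4 were lower and 2 higher (12.4% and 9.84% of all rows). tcirg1b, for the a subunit isoform of mammalian osteoclasts, was at -0.97 (SE 0.24, adjusted p = 0.0673 by edgeR), and dmxl2, for an assembly factor of the pump, at -0.61 (SE 0.16). The paralogs rnaseka and rnasekb, for a small pump-associated protein, pointed apart at -0.79 (SE 0.25) and 0.58 (SE 0.18). Of 33 other membrane and delivery genes 0 rose, 0 fell and 33 did not pass. Of the 6 at an unadjusted edgeR p under 0.05 (22.3% of all rows), 3 were lower and 3 higher. The sorting receptor gene sort1b (0.63, SE 0.17) and scarb2a (0.57, SE 0.17), for a membrane protein that carries glucocerebrosidase, lay above 0, and sidt2 (-0.60, SE 0.21) and cd63 (-0.47, SE 0.21) below.

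Of 29 regulators of the lysosome, among them the TFEB family, the Ragulator complex and autophagy receptors, 0 rose, 0 fell and 29 did not pass. An unadjusted edgeR p under 0.05 was met by 12 (22.3% of all rows), of which 11 were lower (12.4% of all rows). Their median log2 fold change was -0.32. fnip1, a partner of folliculin, was at -0.53 (SE 0.14), the Ragulator subunits lamtor4 and lamtor5 at -0.79 (SE 0.21) and -0.72 (SE 0.23), and sqstm1, an autophagy receptor, at -0.54 (SE 0.17). Of 4 cystatins tested, the natural inhibitors of cysteine cathepsins, 0 rose, 0 fell and 4 did not pass. The 1 at an unadjusted edgeR p under 0.05 (22.3% of all rows) was cst14a.2 at -0.46 (SE 0.16). The others were cst3 at 0.17 (SE 0.15), cst14b.1 at 0.10 (SE 0.20) and cst14a.1 at 0.65 (SE 0.50).

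How many members were called depended on the larvae in the fit, as did the count over all rows. It was 10 of 52 without wild-type 1 (19.2%, beside 9.76% of all rows), 10 of 51 without homozygote 2 (19.6% beside 5.31%), 6 without wild-type 4 (11.8% beside 1.40%), 1 without wild-type 2 (1.92% beside 0.328%) and 0 without wild-type 3 or homozygote 1, 3 or 4. With wild-type 1 and homozygote 2 both left out, 20 members were lower and 1 higher (41.2%, beside 18.3% of all rows). Those were 10 pump subunits, all lower, 5 cathepsins lower and ctsf higher, and from the membrane and glycosidase groups lamp1a, laptm4a, laptm5, npc2 and hexb. DESeq2 with all 8 larvae called 15 members, all lower (29.4% beside 8.0%), 6 of them cathepsins and 6 pump subunits. Other settings called few: 3 with RLE size factors (beside 1.11% of all rows), 3 of 56 with no filter (1.18%), 2 of 49 with a minimum count of 50 (1.29%), 4 with a replicate block (1.55%), and 1 each with limma voom (0.709%), without the robust option (0.947%) and with library totals alone (0.574%).

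**Figure D5:**
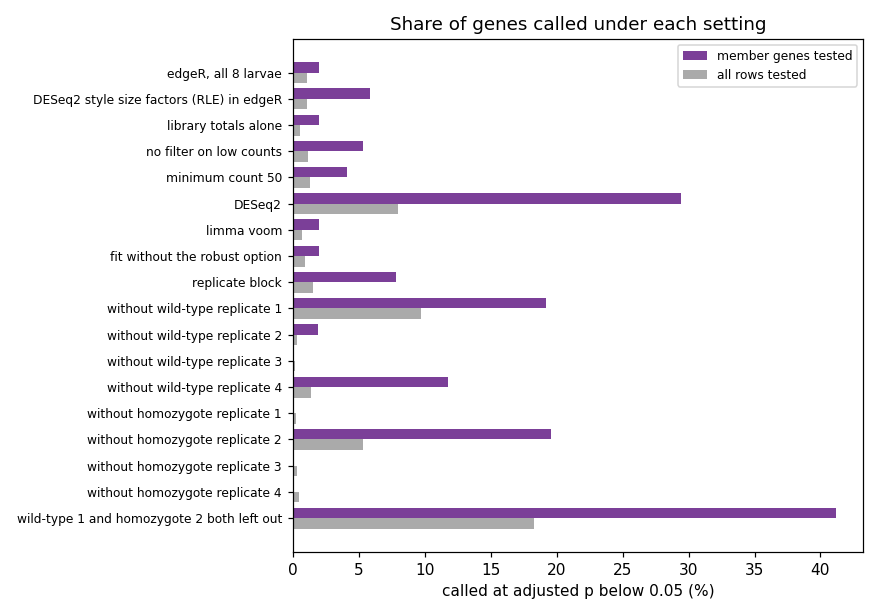
Percent of tested members (purple) and of all tested rows (grey) called at an adjusted p below 0.05 (horizontal axis) under each setting (vertical axis). Members are at 1.96% with edgeR and all 8 larvae, at 29.4% with DESeq2 and at 41.2% without wild-type 1 and homozygote 2, where all rows stand at 1.05%, 8.0% and 18.3%.

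The scaling of libraries sets where 0 lies. With library totals alone the median of all rows moved from 0.02 to 0.40, 26 of 51 members were below 0 in place of 38, and laptm5 was still called (adjusted p = 0.0456 by edgeR). Relative to the median of all rows, the cathepsin median was -0.65 with TMM scaling and -0.64 with totals, and the pump median -0.41 and -0.40.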

How the data were processed

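Total RNA from 8 single larvae was sequenced after ribosomal RNA depletion and random priming, per the labels' protocols. The deposited table holds expected counts per gene, made by the authors with Trimmomatic, STAR 2.7 and RSEM on build danRer11, per the submitters' processing notes; their settings and annotation, and whether strand was used, are not given in the sources used here. As RSEM splits reads shared by paralogs, near-identical paralogs are uncertain, as are rows that overlap an antisense gene.

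Expected counts were rounded. Of 35197 rows, 21447 passed filterByExpr (minimum count 10). Levels are CPM of TMM-scaled libraries. A robust quasi-likelihood model with genotype as its only term was fitted to all rows (edgeR 4.0.16, R 4.3.3), with Benjamini-Hochberg adjustment over all rows and a threshold of 0.05. Standard errors are the log2 fold change over the root of F. Family means used log2 CPM with a prior count of 2. The fit was tested on simulated data. Every pair of libraries in a group differed beyond sampling noise, with a chi-square of at least 20.2 for each degree of freedom.

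The members and lists were chosen with earlier results of these data known. Values per larva are given for each called member and for the 3 smallest p in each family, and up to 4 genes are named from each pathway list. Values per larva of the ctss genes, ctsbb, ctsl.1, ctsba and cubn were added after they were seen. Alternatives were other size factors, library totals, filters of 0 and 50, DESeq2 1.42.0, limma voom (3.58.1), a fit without the robust option, a replicate block and larvae left out. A planned count of promoter motifs was not run, as no sequences were used here. Gene neighbours come from the RefSeq gene order of GRCz12tu, which is not the build of the counts, so no coordinates are given. Of 56 member identifiers, 55 were in the table of gene names.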

Additional observations from a re-analysis of the deposited data

Results flagged for a closer look

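In 4 of 112 groups of 4 larvae, a single larva lay far from the others on the log2 scale (the gap to the nearest larva divided by the range of the group); chance flags about 1 in 20 groups. For ctsba the ratio was 0.925, with wild-type 4 at 124 CPM and the other wild-type larvae at or below 0.164 CPM. For glb1l it was 0.864, with wild-type 3 highest at 4.83 CPM. For gba3 it was 0.853, with homozygote 2 highest at 1.98 CPM. For man2b1 it was 0.838, with homozygote 4 highest at 84.2 CPM.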

How the results depend on the processing

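The count of members called (1 with edgeR and all larvae) was 3 with RLE size factors, 3 without a filter, 2 with a minimum count of 50, 15 with DESeq2 and 0 to 10 with a larva left out. For cathepsins (0) it was 1, 1, 0, 6 and 0 to 5, and for pump subunits (0) it was 0, 0, 0, 6 and 0 to 5. Without wild-type 1 and homozygote 2, chosen after seeing the data, the counts were 21, 6 and 10. The replicate numbers did not pair the larvae (same-number correlations of deviations from -0.11 to 0.05, with 1 of the 4 numbers best matched to itself). With the replicate block the counts were 4, 1 and 2. With library totals alone the cathepsin median was -0.24 and the pump median 0.0044; with a larva left out the pump median ranged from -0.40 to -0.24 and the cathepsin median from -0.63 to -0.46. The cathepsin-minus-pump difference of -0.25 ranged from -0.43 to -0.15 with a larva left out. No result changed its sign past the threshold. The cause of these changes was not tested. ctslb, ctsll, atp6v1c2 and gaa had too few counts to test, and the part of depth in this was not tested.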

Other observations

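In the RefSeq gene order xkr5b and cgref1 flank ctsba. In wild-type 4, the larva with 124 CPM of ctsba, xkr5b was at 1.87 CPM, beside 1.47 to 3.09 CPM in the other 7 larvae. cgref1 was at 28.3 CPM in wild-type 4, above the 12 to 18.5 CPM of the other 7.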
